A study of Homo sapiens with 4 samples.

Results

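The BTG and TOB antiproliferative genes BTG1, BTG2, BTG3, TOB1 and TOB2 were examined in MDA-MB-231 Fluc cells, which are triple-negative breast cancer cells carrying an inserted luciferase gene. The genes were chosen by symbol as a family, with earlier results of these data known, and all 5 were found, each once, among the 13957 genes of the deposited table. RNA had been taken from 2 samples given 50 μM cordycepin, an adenosine analogue, for 2 h and from 2 samples given the vehicle DMSO. The libraries were stranded, made after ribosomal RNA had been removed, and read as paired ends of 75 bp. The table gives each gene 1 mean level over the 4 libraries, as log2 CPM (counts scaled to library size, on a log2 scale). No level per library or per group was analysed here, so the levels below hold treated and control cells together. They have no SD, library depth is unknown, and how the genes differed between cordycepin and DMSO is not reported.

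BTG and TOB proteins share a conserved N-terminal domain and restrain cell proliferation when overexpressed. Through this domain most of them bind the CNOT7 and CNOT8 subunits of the CCR4-NOT complex, the main cytoplasmic deadenylase, which shortens the poly(A) tails of mRNAs. TOB proteins also bind the poly(A)-binding protein PABPC1 through their C-terminal part, which brings the deadenylase to the tail. BTG2 is a target gene of p53, BTG1 is abundant in resting lymphocytes, and TOB1 was first described as a protein that binds the receptor ERBB2. BTG4, the remaining human family gene, acts mainly in oocytes and early embryos and was not among the genes of the table.

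What the 5 genes have in common can be read in their coding sequence. The proteins encoded by the canonical transcripts in GENCODE release 44 have 171 residues (BTG1), 158 (BTG2), 252 (BTG3), 345 (TOB1) and 344 (TOB2). In an alignment of all of them, 145 columns held a residue of every protein, and 30 of these (20.7%) were identical in all. The gap-free stretch of 20 residues with the most identical columns had 11. Its 60 coding bases are shown 5′ to 3′, with the 30 bases that are the same in every gene in capitals.
BTG1: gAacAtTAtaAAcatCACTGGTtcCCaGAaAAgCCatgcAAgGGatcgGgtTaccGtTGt
BTG2: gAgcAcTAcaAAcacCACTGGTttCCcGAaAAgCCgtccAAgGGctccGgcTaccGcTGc
BTG3: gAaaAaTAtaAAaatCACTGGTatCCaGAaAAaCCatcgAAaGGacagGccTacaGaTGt
TOB1: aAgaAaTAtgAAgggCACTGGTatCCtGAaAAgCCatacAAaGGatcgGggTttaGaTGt
TOB2: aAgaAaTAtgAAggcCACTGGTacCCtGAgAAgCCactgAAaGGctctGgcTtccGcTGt

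Within this stretch, the longest run of bases shared by all 5 genes, CACTGGT, was 7 bases. The stretch covers residues 50 to 69 of BTG1, 48 to 67 of BTG2, 40 to 59 of BTG3 and 38 to 57 of both TOB proteins. In GRCh38 it lay within a single exon of TOB1 (chr17:50863847-50863906, minus strand) and of TOB2 (chr22:41437175-41437234, minus strand). In the other genes an intron divided it. In BTG1 (minus strand of chromosome 12) and BTG2 (plus strand of chromosome 1) the intron followed the first base of the stretch, with the other 59 bases at chr12:92144389-92144447 and chr1:203307104-203307162. In BTG3 (minus strand of chromosome 21) the intron came after 56 bases, which lie at chr21:17608972-17609027, and the last 4 bases lie at chr21:17604994-17604997. BTG1 and BTG2 therefore had an intron at the same place of the alignment, and BTG3 did not.

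Over the whole proteins, the members formed close pairs. BTG1 and BTG2 were identical at 105 of 158 aligned residues (66.5%), and TOB1 and TOB2 at 208 of 314 (66.2%). All other pairs had between 25.9% (BTG3 and TOB2) and 36.7% (BTG1 and TOB1) identical residues. Among the 5, BTG3 had no close partner, as its highest identity was 35.8%, with BTG2. The remaining family protein, BTG4, was not aligned. These values count only positions where both proteins have a residue. With gaps counted as differences, the close pairs had 61.4% and 55.5%, and the others between 14.4% and 20.2%.

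**Figure D1:**
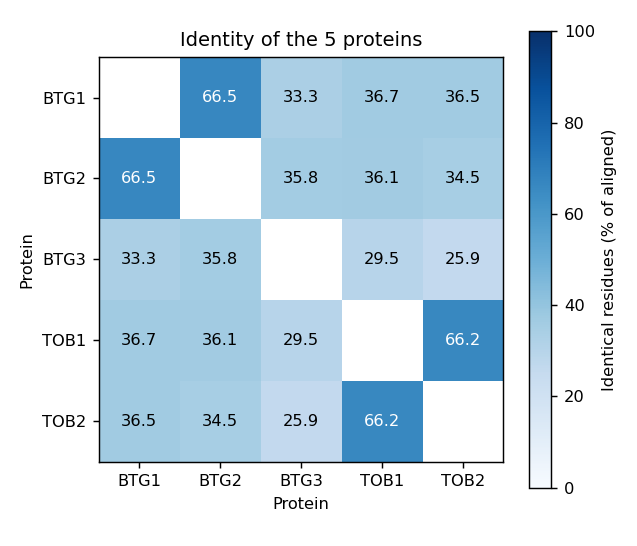
Percentage of identical residues among aligned residues for each pair of the 5 proteins, translated from the canonical transcripts. BTG1 with BTG2 (66.5%) and TOB1 with TOB2 (66.2%) stand out, and the palest cell is BTG3 with TOB2 (25.9%).

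The genes lie on different chromosomes, and start and end were the same in the table and in GENCODE for all 5. BTG1 (ENSG00000133639) is at chr12:92140278-92145846 on the minus strand, and BTG2 (ENSG00000159388) at chr1:203305491-203309602 on the plus strand. BTG3 (ENSG00000154640) is at chr21:17593653-17612945, TOB1 (ENSG00000141232) at chr17:50862223-50867978 and TOB2 (ENSG00000183864) at chr22:41433494-41446801, each on the minus strand. The canonical transcripts of BTG1, BTG2, TOB1 and TOB2 had 2 exons, a structure found in 4.15% of the 11603 protein-coding genes of the table, whose median was 9 exons. In TOB1 and TOB2 the protein was encoded in 1 exon. BTG3 had 5 exons, of which 4 were coding.

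The mean levels of the members spanned 3.70 on the log2 CPM scale. BTG1 was at 5.12 log2 CPM, BTG3 at 4.76, TOB2 at 4.33, TOB1 at 3.44 and BTG2 at 1.42. Of these, BTG1 and BTG3 were above the median of all genes in the table (4.58), and BTG2 had 7.89% of all genes at or below it, the lowest value of the table being 0.56. In bulk RNA, expression in few cells and a low level in every cell cannot be told apart. On a linear scale these levels correspond to 34.9 CPM for BTG1, 27.2 for BTG3, 20.1 for TOB2, 10.9 for TOB1 and 2.67 for BTG2. BTG1 and BTG3 together made up 64.8% of the CPM of the 5 genes.

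Longer genes collect more reads, so levels were compared between genes per kilobase of exon, with the gene length given in the table. BTG3, which is described as a cell cycle inhibitor that binds E2F1, then came first, at 3.56 log2 CPM per kb, and 70.0% of all genes were at or below this level. BTG1 followed with 2.84 log2 CPM per kb (percentile 57.6). TOB2 and TOB1 were next to each other at 2.21 (percentile 46.1) and 2.11 (percentile 44.2). BTG2 was last at -0.044 log2 CPM per kb, at percentile 12.7. Per kilobase, the mean level of BTG3 was 12.2 times that of BTG2. That of BTG1 was 7.40 times that of BTG2, its closest relative by sequence among the 5. In contrast, the levels of the other close pair, TOB2 and TOB1, differed by 0.10 on the log2 scale, a ratio of 1.07. The level of BTG3 was 1.64 times that of BTG1, and the level of BTG1 1.55 times that of TOB2. Since there is no spread between samples for any of these values, it cannot be said which neighbours in this order differ beyond error. The size of the ratios depends on the length used. With the length of the canonical transcript, which is 1410 bases for BTG3 where the table gives 2304, BTG3 was 19.7 times BTG2 and 2.56 times BTG1, and with that of the longest transcript it was 18.7 times BTG2. With no correction for length, BTG1 was 13.04 times BTG2, TOB2 1.85 times TOB1 and BTG3 0.779 times BTG1. The order of TOB1 and TOB2 turned when the length of the canonical or of the longest transcript was used, and that of BTG1 and BTG3 without a correction for length.

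**Figure D2:**
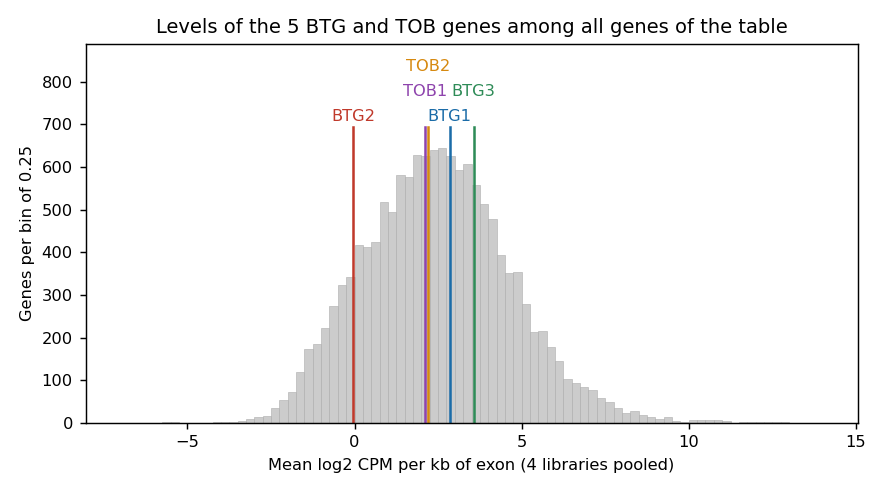
Distribution of the mean level of the 13957 genes, in log2 CPM per kb of exon (x axis) and number of genes per bin (y axis), with a vertical line for each member. BTG2 lies on the lower flank at -0.044, TOB1 and TOB2 almost coincide just below the median of 2.43, and BTG1 and BTG3 lie above it.

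Some counts of these genes depend on how overlapping annotations were treated, which is not given in the sources used here. On the same strand, 503 exonic bases of BTG1 (10.4% of its exons) are also annotated as exons of the lncRNA LINC01619. On the opposite strand, 274 exonic bases of BTG1 overlap BTG1-DT, 326 of BTG3 (14.1%) overlap BTG3-AS1 and 281 of TOB1 (11.1%) overlap TOB1-AS1. The exons of BTG2 and TOB2 overlapped no other annotated gene. None of these lncRNAs, and none of the 4 annotated BTG and TOB pseudogenes (BTG1P1, BTG3P1, TOB2P1 and BTG4P1), was among the genes of the table. All 5 members had a lncRNA starting on the other strand within 2000 bases of their own start, as did 19.3% of the protein-coding genes in the table. The starts were 134 bases apart for TOB2, 176 for BTG2, 273 for BTG1, 1249 for BTG3 and 1299 for TOB1. The window of 2000 bases was chosen after these distances were seen.

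As BTG and TOB proteins act through deadenylation, their levels were set beside those of the deadenylation machinery. All 11 listed genes of the CCR4-NOT complex were in the table. Their median was 3.36 log2 CPM per kb, with a range from 1.41 (CNOT2) to 4.35 (CNOT1, the scaffold). CNOT2 has 14257 bases of exon, where BTG3 has 2304, and was at 5.24 log2 CPM without a length correction, above all 5 members. The levels of CNOT7 and CNOT8, whose products BTG and TOB proteins bind, were 3.25 and 3.36. These were above the levels of BTG1, TOB1, TOB2 and BTG2 and below that of BTG3. Without a length correction, CNOT7 (6.71 log2 CPM) and CNOT8 (5.33) were above BTG3 (4.76) as well. No other length was tried for the listed genes. Per kilobase, BTG2 was below every one of the 11 genes, whereas BTG3 was above all but 4 of them. Without a length correction BTG2, at 1.42 log2 CPM, was still below all 11. BTG3 was then above only CNOT4 (4.24) and CNOT6L (4.64). CNOT6, which encodes the other type of catalytic subunit, was next to BTG3 per kilobase, at 3.58, but at 6.29 log2 CPM without the correction. Its paralogue CNOT6L was at 1.41 per kilobase. In the PAN2-PAN3 deadenylase, PAN2 was at 1.72 and PAN3 at 2.76 log2 CPM per kb, on either side of TOB1 and TOB2. Without a length correction, PAN2 (4.58 log2 CPM) and PAN3 (5.43) were both above TOB2 (4.33) and TOB1 (3.44). The poly(A)-binding protein genes PABPC1, at 8.50, and PABPC4, at 5.93, were far above all members. Among genes for other partners, PRMT1, an arginine methyltransferase that binds BTG1 and BTG2, was at 5.86, ERBB2 at 3.13 and SMAD4 at 1.26. Uncorrected for length, PRMT1 (8.12 log2 CPM) and ERBB2 (6.49) were above every member, and SMAD4 (4.98) was above all but BTG1 (5.12). CPEB3, which encodes an RNA-binding protein to which TOB1 binds, was not among the genes of the table.

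**Figure D3:**
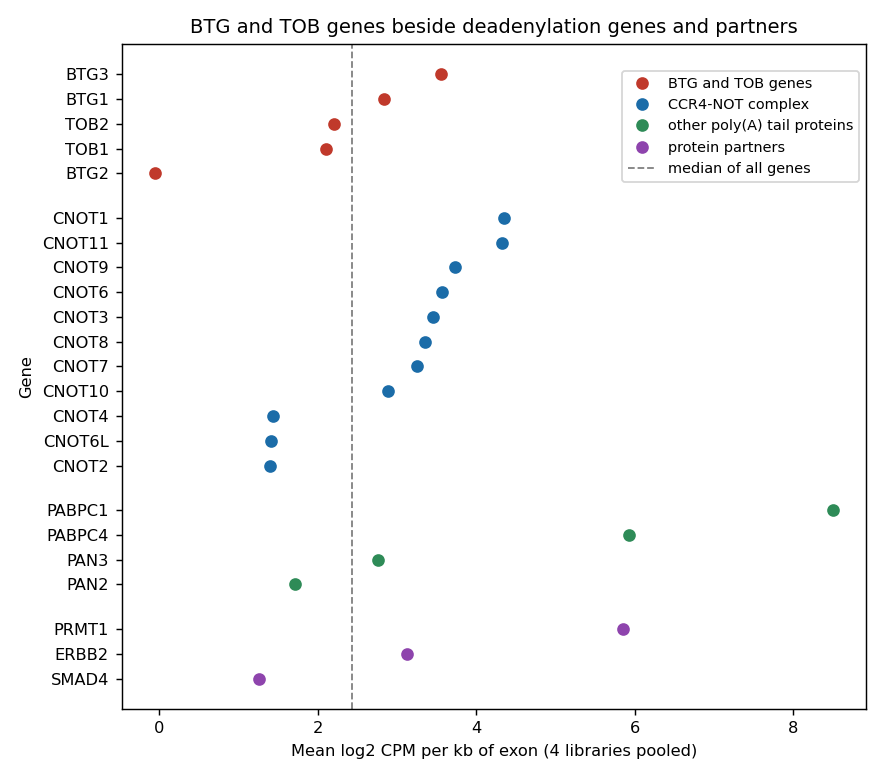
Mean level of each gene in log2 CPM per kb of exon (x axis) for the 5 members, 11 CCR4-NOT genes, 4 other poly(A) tail genes and 3 partners (y axis), with the median of all genes (2.43) as a dashed line. BTG2 is the lowest point of the plot and PABPC1 the highest, while the other members lie within the range of the CCR4-NOT genes. Without a length correction TOB1, at 3.44 log2 CPM, was below the lowest CCR4-NOT gene, CNOT4 at 4.24.

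The mRNAs of the members differed most in their 3′ UTR. It measured 3802 bases in BTG1 and 2817 in TOB2, or 82.1% and 65.0% of the canonical transcript. In BTG2 it had 2164 bases (79.3%), in TOB1 757 (33.8%) and in BTG3 440 (31.2%). The median over 11579 protein-coding genes of the table with a 3′ UTR was 1372 bases, with BTG1 at percentile 84.6 and BTG3 at percentile 20.6. Members that encode similar proteins thus differed in this respect, as the 3′ UTR of TOB2 was much longer than that of TOB1.

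Poly(A) tails are added downstream of a hexamer signal, and cordycepin is known to be able to end such a tail when it is built in. For this reason the last 30 bases of each canonical transcript are shown 5′ to 3′, with AATAAA and ATTAAA signals in capitals.
BTG1: ccaagataggAATAAAaaaatgtagttcaa
BTG2: gttactttAATAAAaatgtagtaggataaa
BTG3: gttgcaAATAAAaaatagtttgaggcatga
TOB1: gtttgtATTAAAattctttaaaATTAAAaa
TOB2: aagtttgtATTAAAagcatgatacataata

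The 3 BTG mRNAs had the signal AATAAA, which was found in the last 30 bases of 59.8% of the 11579 transcripts, and both TOB mRNAs had ATTAAA, found in 16.8%. Either signal was present in 74.1%. In BTG1, BTG2, BTG3 and TOB2 the signal ended 14, 16, 18 and 16 bases before the annotated end, and in TOB1 there were 2 matches, ending 18 and 2 bases before it. In GRCh38 these ends lie at chr12:92140278-92140307, chr1:203309573-203309602, chr21:17593653-17593682, chr17:50862223-50862252 and chr22:41433494-41433523. The annotated ends were not checked against reads.

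Motifs of RNA-binding proteins that recruit deadenylases were then counted on the sense strand of the canonical 3′ UTR. The AU-rich pentamer ATTTA had 5 matches in BTG1, 4 in TOB1, 3 in BTG3, 3 in TOB2 and 2 in BTG2. It was present in 73.8% of all 3′ UTRs, with 2.30 matches per kb. Per kb, the short 3′ UTRs of BTG3 (6.82) and TOB1 (5.28) were above this, and those of BTG1 (1.32), TOB2 (1.06) and BTG2 (0.92) below. Their AT content followed the same division between short and long, being 71.1% in BTG3 and 73.7% in TOB1 compared with 65.5% in BTG1, 53.2% in BTG2 and 51.8% in TOB2. The longer AU-rich nonamer TTATTTATT, which contains the pentamer, had no match in any member and was present in 9.85% of all 3′ UTRs.

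The Pumilio element TGTANATA, where N is any base, was found in BTG1 alone, with 4 matches in its 3′ UTR. This element was present in 30.7% of all 3′ UTRs, whose median length is below that of BTG1, and its density was 0.24 matches per kb over all and 1.05 in BTG1. Sites after the first are shown within 30 bases each, in order along the mRNA, with the element in capitals.
BTG1 site at chr12:92142977-92143006: tgaagatgctcTGTATATAcatgtttaggt
BTG1 site at chr12:92142626-92142655: cacctgcaagaTGTACATAaaaatcacata
BTG1 site at chr12:92140551-92140580: atatatgggacTGTAAATAgagaaatctgt

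They began at bases 1085, 1436 and 3511 of the 3802 bases. No binding was measured in these cells, so a match describes the sequence only.

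**Figure D4:**
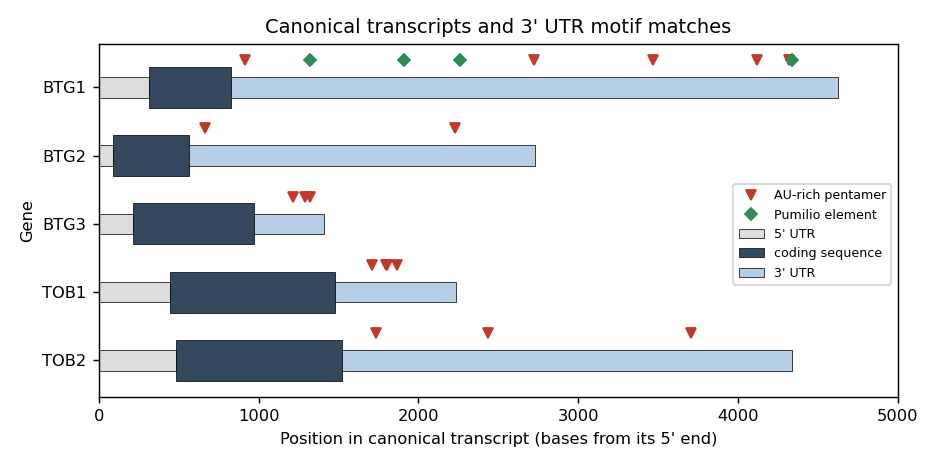
Canonical transcripts of the 5 members drawn to scale in bases from the 5′ end (x axis), with 5′ UTR in grey, coding sequence in dark blue and 3′ UTR in light blue. Red triangles mark ATTTA matches and green diamonds Pumilio elements, which occur only in BTG1, while ATTTA matches lie close together in the short 3′ UTRs of BTG3 and TOB1.

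The cell type was checked with markers. All 5 mesenchymal breast line markers examined (VIM, CD44, AXL, CAV1 and FOSL1) were in the table at 7.25 to 8.65 log2 CPM per kb, above every BTG and TOB gene. Of 7 luminal or epithelial markers, ESR1 and PGR were not among its genes, and CDH1 was at 1.07, FOXA1 at 0.19, EPCAM at 2.40, GATA3 at 2.72 and KRT8 at 6.33. Neither of 2 white blood cell markers (PTPRC and CD3E) was in the table. Of 3 fibroblast markers, COL1A1 was present at 0.19, and COL3A1 and DCN were not among the genes.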

How the data were processed

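RNA from 2 cordycepin and 2 DMSO samples of MDA-MB-231 Fluc cells had been sequenced. Mapping to GRCh38.p13 and counting with rsubread were done by the authors. The submitters' processing notes name TopHat, HTSeq, DESeq and Cufflinks without a role, and the normalization and the filter on low counts are not given in the sources used here. The deposited table holds 1 mean level per gene over all libraries, as log2 CPM, with gene length and coordinates. It also holds the authors' own comparison of cordycepin with DMSO (log2 fold change, F statistic, p-value and adjusted p-value), which was not used. The table has 0 further columns of values per sample, so no test was made and library depth is unknown. No precision is given for a level, nor whether the mean was taken before or after the log2 step.

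Level per kb was the mean log2 CPM less log2 of the gene length in kilobases, and a percentile is the share of genes at or below a level. For all 5 members, and for 73.7% of genes found in GENCODE release 44, the table's length equalled that of all exons merged. Of the gene IDs, 13922 (99.7%) were found in this release. Transcript sequences were taken from it, translated and aligned with MAFFT 7.526. Motif matches were counted with overlaps allowed. The percentile and the motif search were tested on simulated data. Named genes were the members, fixed lists (CCR4-NOT, other poly(A) tail proteins, partners, cell type markers) and annotated neighbours and pseudogenes. Some genes of the marker lists and a sequence are not reported here. The members and lists were chosen with earlier results of these data known. Alternatives were other lengths, no length correction, other sets of genes, merged 3′ UTRs and identity with gaps. Calculations used pandas 2.3.3 and numpy 2.4.6 in Python 3.11.15, intervals scipy 1.17.1, and plots matplotlib 3.10.9.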

Additional observations from a re-analysis of the deposited data

How the results depend on the processing

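No paired analysis was possible because the table gives 1 value per gene over all libraries, and for the same reason no library was left out and no count model was run. Percentiles of level per kb are given in the order BTG1, BTG2, BTG3, TOB1 and TOB2. With the longest annotated transcript as length they were 51.4, 9.06, 73.5, 40.0 and 38.8, with the canonical transcript 47.8, 7.46, 71.1, 36.6 and 35.4. Without a length correction they were 58.9, 7.89, 53.2, 32.3 and 45.7. Among protein-coding genes only they were 56.1, 11.7, 69.4, 42.4 and 44.3. Among genes above the lowest 25% of mean log2 CPM, which leaves BTG2 out, they were 45.3 for BTG1, 60.9 for BTG3, 29.5 for TOB1 and 31.7 for TOB2. BTG2 was lowest in each setting that kept it. Merged 3′ UTRs gave the same motif counts for each member. With gaps counted, 9 of the 10 protein identities moved beyond their Wilson 95% interval and BTG1 with BTG2 did not. Counting gaps adds columns but no identical residues, so an identity could only stay or fall. The interval served as a yardstick for the size of the move and measures no sampling error. What limits the levels is that a mean over treated and control cells can be the same for genes that differ between them.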
